A study of Mus musculus with 6 samples.

Results

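A set of 10 mature microRNAs (miRNAs) cut from precursors inside 6 protein-coding genes was followed in mouse dermal fibroblasts with a constitutively active Nrf2. They are 10 of the 1907 mature miRNA names counted in each library, and they come from miR-708 (in Tenm4), miR-139 (Pde2a), miR-149 (Gpc1), miR-335 (Mest), miR-671 (Chpf2) and miR-672 (Nexmif). They were selected on their measured caNrf2 over ctrl differences in these same libraries. Both arms are in the set for miR-708, miR-139, miR-335 and miR-671, and only the 5p arm for miR-149 and miR-672. Fold changes, calls and adjusted p-values of the members for this contrast therefore repeat the choice. They are given as a description of what was chosen, are no test, and support nothing.

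The caNrf2 cells (genotype Col1a2Cre-caNrf2) were primary dermal fibroblasts from newborn mice that carried a Cre recombinase together with a constitutively active mutant of Nrf2, and 3 libraries came from 3 mice. The ctrl cells (genotype Col1a2Cre-wt) were the same kind of cells from 3 mice with the Cre alone. Both groups therefore share the Cre, which the Col1a2 promoter drives in fibroblasts, as well as a mixed background of C57Bl/6 and FVB/N and 6 days of growth in culture at passage 1. Nrf2 is the transcription factor that switches on antioxidant and detoxification genes. It is not an miRNA, so these small RNA counts hold no check of the transgene.

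The libraries held 13733970 to 28237159 counts in the caNrf2 group and 10443268 to 20595024 in the ctrl group. A count of 3 corresponded to 0.106 to 0.287 CPM (counts scaled to the library total). Mesenchymal marker miRNAs such as miR-199a-3p, miR-143-3p and miR-10b-5p were abundant in every library. The 8 listed summed to 165990 to 174056 CPM in caNrf2 and 177330 to 179219 CPM in ctrl libraries, with 5 of 8 called lower and 0 higher. The list did not move together. miR-143-3p had 100116 to 106023 CPM in caNrf2 and 78362 to 87513 CPM in ctrl libraries. miR-145a-5p, at 437 to 580 and 387 to 399 CPM, also lay higher in every caNrf2 library. Epithelial markers summed to 1600 to 2121 and 1035 to 1865 CPM, and endothelial markers to 147 to 170 and 116 to 165 CPM, in caNrf2 and ctrl libraries in that order. The sums of the blood and muscle lists were higher in the caNrf2 libraries. The 7 blood markers summed to 648 to 760 CPM in caNrf2 and 386 to 476 CPM in ctrl libraries, with 4 of 7 tested called higher. Most of this sum was miR-486a-5p, at 491 to 585 and 349 to 405 CPM. The groups lay further apart, relative to their level, for miR-142a-5p, at 120 to 181 and 23.9 to 51.2 CPM. The same held for miR-142a-3p, at 14.8 to 25.4 and 4.33 to 7.31 CPM, and miR-223-3p, at 12.9 to 19.6 and 2.89 to 4.64 CPM. The groups overlapped for miR-150-5p and miR-451a. The rare miR-144-3p was lower in every caNrf2 library, at 0.281 to 0.623 against 0.669 to 1.33 CPM. The 5 muscle markers summed to 558 to 737 CPM in caNrf2 and 344 to 421 CPM in ctrl libraries, with 4 of 4 tested called higher. Neural, glial and melanocyte markers summed to 494 to 537 CPM in caNrf2 and 409 to 567 CPM in ctrl libraries, with 2 of 6 tested called higher, miR-9-5p and miR-338-3p. No marker was at 0 in all libraries, although the muscle fibre miRNA miR-1a-3p had at most 9 counts and the neuronal miR-124-3p at most 8 in any library. The part of these cells in the results below was not tested. In RNA from a whole culture, fewer cells of a type and less RNA per cell cannot be told apart.

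An miRNA is cut from a hairpin in a longer transcript, first by Drosha in the nucleus and then by Dicer in the cytoplasm. The cut leaves a duplex of a 5p and a 3p arm, and an Argonaute protein usually keeps one arm, which finds target mRNAs mainly by its seed, bases 2 to 8. A hairpin inside a protein-coding gene on the same strand can be made from the host's own transcript or from a promoter of its own. Host mRNA was not measured here.

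The precursors were placed by the GENCODE M21 annotation of mm10, the build of the submitters' processing notes. All 6 lay on the strand of their host, and introns and exons are numbered along its principal transcript. Mir708 (chr7:96249424-96249532) lay in intron 1 of Tenm4, which encodes a teneurin cell-adhesion protein, and was 78178 bases from the start of that gene. Mir139 (chr7:101475376-101475443) lay in intron 2 of Pde2a, the gene of a phosphodiesterase that cyclic GMP stimulates. Mir149 (chr1:92850378-92850443) lay in intron 1 of Gpc1, which encodes the heparan sulfate proteoglycan glypican 1. Mir335 (chr6:30741299-30741396) lay in intron 2 of Mest, an imprinted gene expressed in mesoderm. Mir672 (chrX:104116175-104116274) lay in intron 1 of Nexmif, known for a role in neurite extension. Mir671 (chr5:24592114-24592211) was the exception among the 6. It overlapped coding exon 4 of Chpf2, a gene of chondroitin synthesis, in both annotated coding transcripts that span it. No other listed miRNA with a RefSeq position lay within 50 kb of any of the 6 precursors. Listed names without such a position could not be placed. One more listed miRNA with a position lies in one of these hosts on the same strand, miR-6394 in Tenm4, and it had 1 count over the 6 libraries.

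**Figure D1:**
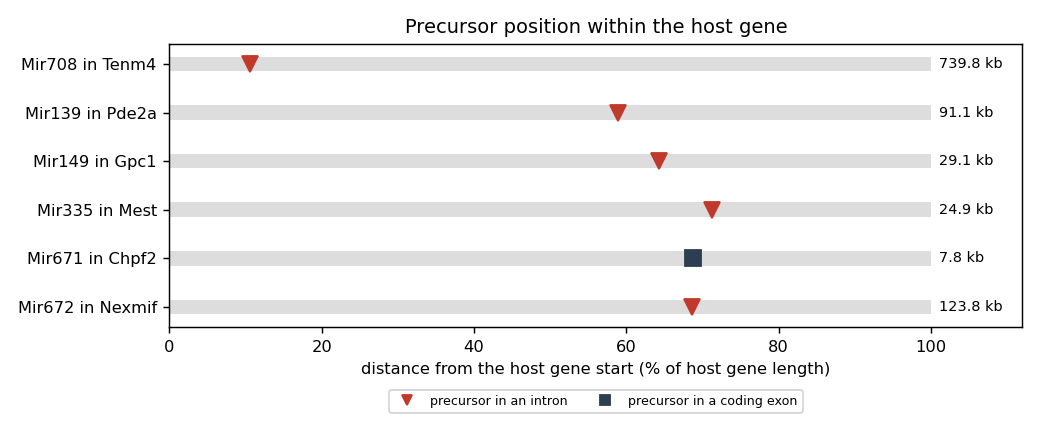
Position of each precursor along its host gene, as a percentage of the host gene length from its annotated start (x axis), with 1 grey bar per host and its length in kb at the right. Mir708 lies near the start of the longest host at 10.6% of its length, the other 5 lie between 58.9% and 71.2%, and Mir671 alone lies in a coding exon.

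The mature sequences that were counted are shown because the arms of one hairpin differ in seed and so in the mRNAs they can pair with. They are RefSeq sequences on GRCm38.p6, which matched all 10 names, and the seed is in capitals. The 4 arms whose level was lower in caNrf2 fibroblasts come first.
mmu-miR-708-5p: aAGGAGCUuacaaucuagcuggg
mmu-miR-708-3p: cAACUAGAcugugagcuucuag
mmu-miR-139-5p: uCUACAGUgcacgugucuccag
mmu-miR-139-3p: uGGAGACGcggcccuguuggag
mmu-miR-149-5p: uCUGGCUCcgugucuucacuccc
mmu-miR-335-5p: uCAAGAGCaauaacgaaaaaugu
mmu-miR-335-3p: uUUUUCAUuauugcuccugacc
mmu-miR-671-5p: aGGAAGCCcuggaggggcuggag
mmu-miR-671-3p: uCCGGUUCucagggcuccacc
mmu-miR-672-5p: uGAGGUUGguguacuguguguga

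The 10 sequences had 10 different seeds, so no pair of them forms a seed family. They were 21 to 23 bases long, and 7 of 10 began with U, against 39.4% of the 592 tested names with a RefSeq sequence. Their GC content ran from 30.4% in miR-335-5p to 69.6% in miR-671-5p, with a median of 51.1%, against 50% over the same 592. Outside this set, 2 listed miRNAs with a RefSeq sequence carried one of the 10 seeds, one for miR-708-5p and one for miR-672-5p. Listed names without such a sequence could not be searched.
mmu-miR-28a-5p: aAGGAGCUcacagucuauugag
mmu-miR-377-5p: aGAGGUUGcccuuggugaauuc

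The exonic Mir671 hairpin and the Mir335 hairpin, whose arms were nearest to equal in level, are printed with both mature arms in capitals and on the strand of the host.
Mir671: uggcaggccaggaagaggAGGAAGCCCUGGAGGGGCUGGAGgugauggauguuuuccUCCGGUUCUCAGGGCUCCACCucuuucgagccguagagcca
Mir335: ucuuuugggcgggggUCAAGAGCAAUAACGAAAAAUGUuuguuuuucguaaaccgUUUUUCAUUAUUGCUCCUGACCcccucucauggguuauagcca

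All 10 members had enough counts to be tested. In edgeR's quasi-likelihood test, with p-values adjusted by Benjamini and Hochberg over 697 tested miRNAs and a threshold of 0.05, 5 of 10 were called higher and 4 of 10 lower in caNrf2 fibroblasts. Over all tested miRNAs 14.1% were called higher and 11.6% lower. In CPM, 9 of 10 members had groups that did not overlap, 5 higher and 4 lower in caNrf2 fibroblasts, against 23.7% higher and 17.9% lower over all tested miRNAs. The members were chosen with this contrast known, so their calls restate the choice and nothing is read from these shares. The called member nearest the threshold was miR-708-5p (edgeR adjusted p = 0.0295), and the only one not called was miR-335-3p (edgeR adjusted p = 0.113). Together the members held 0.195%, 0.157% and 0.163% of the counts in caNrf2 libraries 1, 2 and 3, and 0.0984%, 0.0929% and 0.106% in ctrl libraries 1, 2 and 3. CPM values are scaled by TMM factors. Between miRNAs they compare read counts of molecules of nearly equal length and take no account of how well each sequence is cloned.

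**Figure D2:**
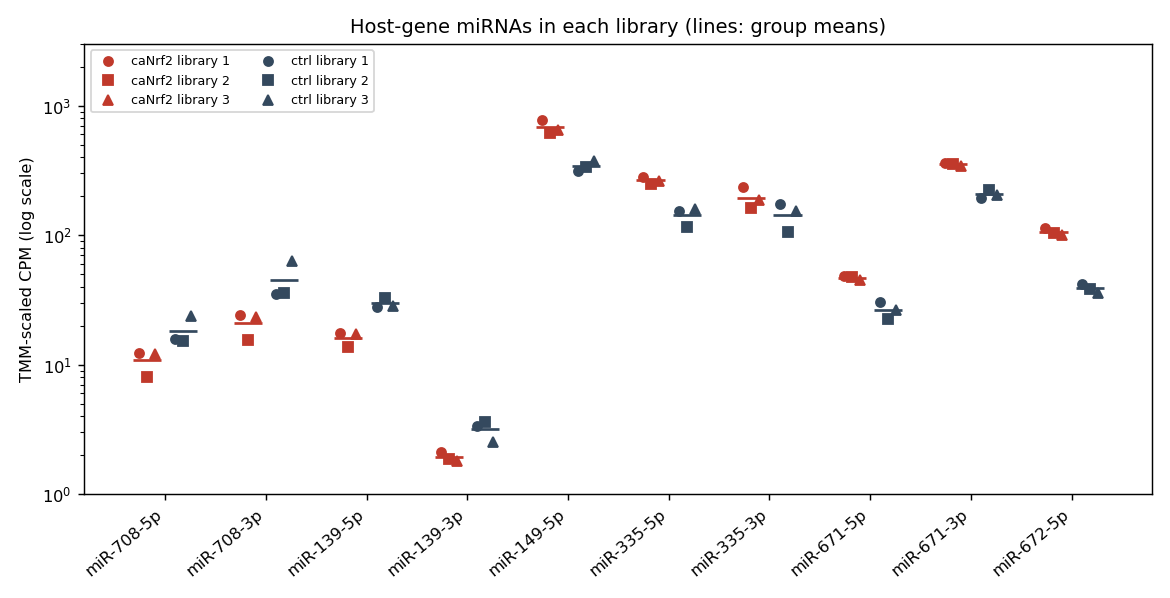
TMM-scaled CPM on a log axis (y) of the 10 members (x), with 1 point per library, caNrf2 in red to the left of ctrl in dark blue, and a line at each group mean. The caNrf2 points lie below the ctrl points for both arms of miR-708 and miR-139 and above them for the other members except miR-335-3p, where the groups overlap; levels span 1.79 to 781 CPM.

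Both arms of miR-708 fell in caNrf2 fibroblasts. miR-708-3p, the more abundant arm, had 24.2, 15.4 and 23.3 CPM in caNrf2 libraries 1, 2 and 3, against 35.1, 35.6 and 63.5 CPM in ctrl libraries 1, 2 and 3. The groups did not overlap, and ctrl library 3 stood well above the other ctrl libraries. Its log2 fold change (caNrf2 over ctrl, as throughout) was -1.10 ± 0.26 (SE, n = 3 per group). Without ctrl library 3 it was -0.76.

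miR-708-5p had 12.2, 8.06 and 12.1 CPM in the caNrf2 libraries, against 15.7, 15.2 and 23.9 CPM in the ctrl libraries. The same libraries were at the extremes as for the 3p arm, caNrf2 library 2 lowest and ctrl library 3 highest. Its log2 fold change was -0.77 ± 0.23 (SE, n = 3 per group), and it was -0.52 and no longer called without ctrl library 3 (edgeR adjusted p = 0.126). The call was also lost without caNrf2 library 1 (edgeR adjusted p = 0.0533) or caNrf2 library 2 (edgeR adjusted p = 0.07).

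Deviations of single libraries from their group mean are given as a description, since the spread within groups also bears on which miRNAs are called. They cancel within each group, so the 6 sides are not independent. Ctrl library 3 lay above its group mean by 0.42 for the 5p and 0.56 for the 3p arm in log2 CPM. Library 2 of the caNrf2 group lay below its own group mean, with deviations of -0.39 for the 5p and -0.42 for the 3p arm. Both arms lay on the same side of the group mean in 6 of 6 libraries for miR-708 and for miR-335, and in 4 of 6 for miR-139 and for miR-671. Members of different precursors also shared sides, in 2 to 5 of 6 libraries with a median of 4 over 41 pairs. All 10 members were above the group mean in caNrf2 library 1, and 8 of 10 were below it in caNrf2 library 2.

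miR-28a-5p shares the seed of miR-708-5p and is printed above beside it. It had 2383, 2261 and 2272 CPM in the caNrf2 libraries and 2241, 2332 and 2087 CPM in the ctrl libraries. The groups overlapped, and its log2 fold change of 0.05 ± 0.07 did not pass (SE, n = 3 per group; edgeR adjusted p = 0.62). Of the counts of miR-28a-5p and miR-708-5p together, miR-708-5p made up 0.51%, 0.355% and 0.528% in the caNrf2 libraries. It made up 0.696%, 0.646% and 1.13% in the ctrl libraries. Its fall therefore lay in a small part of the reads of the names found with this seed.

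miR-139 fell with both arms as well. It has been described in human tumours as a growth-restraining miRNA that is often low. miR-139-5p had 17.4, 13.7 and 17.3 CPM in the caNrf2 libraries, against 28.1, 32.8 and 28.4 CPM in the ctrl libraries. Every caNrf2 library lay below every ctrl library, with a gap wider than the spread in either group. The log2 fold change was -0.89 ± 0.15 (SE, n = 3 per group).

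The 3p arm, miR-139-3p, was the least abundant member. It had 30, 45 and 50 raw counts in the caNrf2 libraries and 35, 59 and 51 in the ctrl libraries, which came to 2.1, 1.87 and 1.79 CPM against 3.37, 3.59 and 2.52 CPM. The groups did not overlap, but the ctrl libraries differed more among themselves than the caNrf2 libraries did. Its log2 fold change was -0.71 ± 0.20 (SE, n = 3 per group). The call was lost when caNrf2 library 2 (edgeR adjusted p = 0.0553), caNrf2 library 3 (0.0689), ctrl library 1 (0.0552) or ctrl library 2 (0.0759) was left out.

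miR-149-5p, from the Gpc1 intron, was the most abundant member and rose in caNrf2 fibroblasts. It had 781, 618 and 651 CPM in the caNrf2 libraries, against 315, 336 and 374 CPM in the ctrl libraries. The lowest caNrf2 library was far above the highest ctrl library. The log2 fold change was 1.00 ± 0.11 (SE, n = 3 per group). By mean CPM it ranked 87 among the 1907 names in caNrf2 and 120 in ctrl fibroblasts. The other arm, miR-149-3p, was almost absent and did not pass the filter on low counts, so it was not tested. It had 9, 15 and 12 raw counts in the caNrf2 and 3, 4 and 7 in the ctrl libraries. In CPM these were 0.631, 0.623 and 0.43 against 0.289, 0.243 and 0.346, without overlap.

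miR-335 comes from an intron of Mest and has been described in human breast cancer cells as a suppressor of metastasis. The 5p arm rose. It had 284, 249 and 264 CPM in the caNrf2 libraries, against 153, 116 and 159 CPM in the ctrl libraries. All caNrf2 libraries were above all ctrl libraries, and the log2 fold change was 0.90 ± 0.13 (SE, n = 3 per group).

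The 3p arm had 237, 161 and 188 CPM in the caNrf2 libraries and 173, 106 and 153 CPM in the ctrl libraries. Here the groups overlapped, since caNrf2 library 2 was below ctrl library 1. The log2 fold change of 0.44 ± 0.19 (SE, n = 3 per group) did not pass (edgeR adjusted p = 0.113). It was 0.27 without caNrf2 library 1 and 0.25 without ctrl library 2, and passed in 2 of 12 alternatives, with no filter on low counts (edgeR adjusted p = 0.00412) and with a replicate block (0.0116).

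Both arms of miR-671, the miRNA in the coding exon of Chpf2, rose by similar factors. miR-671-5p is known in mammals for directing the cleavage of the circular RNA Cdr1as. It had 48.0, 47.5 and 45.0 CPM in the caNrf2 libraries, against 30.5, 22.6 and 26.2 CPM in the ctrl libraries. The caNrf2 libraries lay close together, and the ctrl libraries were lower and more spread. Its log2 fold change was 0.83 ± 0.14 (SE, n = 3 per group). miR-671-3p had 363, 357 and 342 CPM in the caNrf2 libraries, against 194, 224 and 206 CPM in the ctrl libraries. The groups were again well apart, and the log2 fold change was 0.77 ± 0.08 (SE, n = 3 per group).

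miR-672-5p, from the Nexmif intron on the X chromosome, had the highest fold change of the 10. It had 114, 104 and 99.8 CPM in the caNrf2 libraries, against 42.3, 38.7 and 36.0 CPM in the ctrl libraries. Neither group spread widely, and the log2 fold change was 1.44 ± 0.12 (SE, n = 3 per group). The arm outside the set, miR-672-3p, was rare, with 19, 37 and 54 raw counts in the caNrf2 and 6, 10 and 14 in the ctrl libraries. It too was called higher, with a log2 fold change of 1.36 ± 0.27 (SE, n = 3 per group; edgeR adjusted p = 0.00419).

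miR-377-5p carries the seed of miR-672-5p and comes from chromosome 12. It had 54.1, 42.3 and 53.4 CPM in the caNrf2 libraries and 47.9, 61.6 and 56.8 CPM in the ctrl libraries. The groups overlapped, and its log2 fold change of -0.15 ± 0.15 did not pass (SE, n = 3 per group; edgeR adjusted p = 0.493). Of the reads of miR-377-5p and miR-672-5p together, miR-672-5p made up 67.8%, 71.1% and 65.1% in the caNrf2 libraries. It made up 46.9%, 38.6% and 38.8% in the ctrl libraries. It was thus the more abundant of the pair in each caNrf2 library and the less abundant in each ctrl library.

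**Figure D3:**
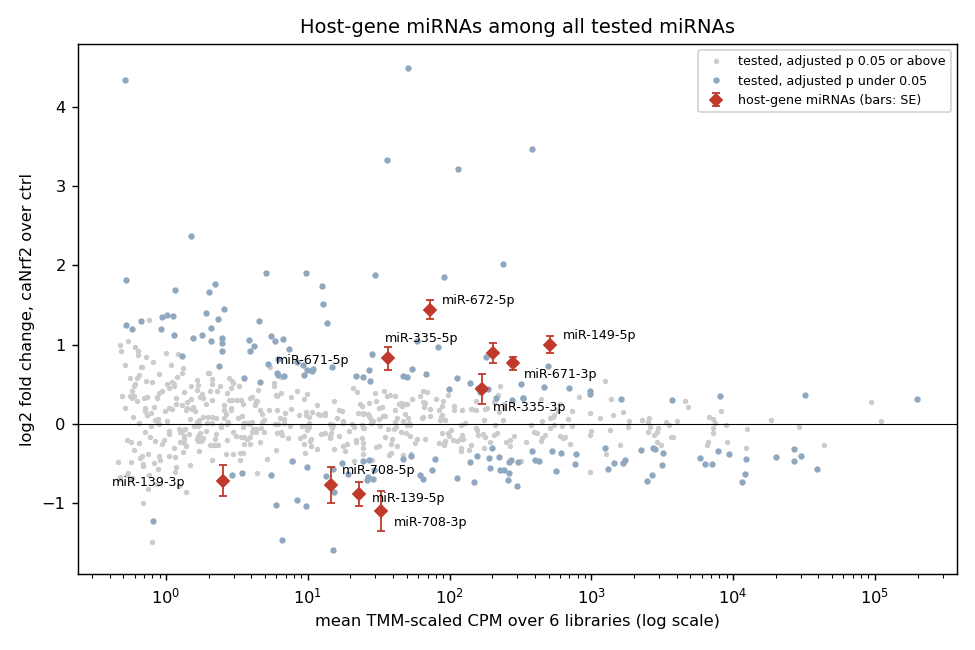
Log2 fold change of caNrf2 over ctrl (y) against the mean TMM-scaled CPM over the 6 libraries on a log axis (x) for the 697 tested miRNAs; red diamonds are the 10 members with SE bars, and the points of all other tested miRNAs are coloured by the edgeR adjusted p. The members run from -1.10 in miR-708-3p to 1.44 in miR-672-5p, and miRNAs outside the set reach larger changes in both directions.

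Which arm of a hairpin has more reads was not used to choose the members of miR-708, miR-139, miR-335 and miR-671, whose arms are both in the set. For miR-149 and miR-672 only the 5p arm was chosen and the 3p arm was rare. Their arm results can follow from that choice and are a description. A ratio of arms within a library does not depend on library scaling, but it takes in how well each arm is cloned. A steady cloning difference between the arms would give every library the same sign. It cannot be told apart here from the arm that is kept. The ratio of arms was tested over the 6 libraries, as the log2 ratio of 5p to 3p counts with 0.5 added to each. The test was a two-sided exact sign-flip permutation test adjusted by Benjamini and Hochberg over 6 precursors. The 5p arm exceeded the 3p arm in 6 of 6 libraries for miR-149 (mean log2 ratio 10.12 ± 0.25, SD, n = 6), for miR-672 (5.96 ± 0.27) and for miR-139 (3.14 ± 0.22). The 3p arm exceeded the 5p arm in 6 of 6 libraries for miR-671 (-2.95 ± 0.21) and miR-708 (-1.11 ± 0.19). For miR-139, miR-671 and miR-708 the exact permutation p was 0.03125, the smallest that 6 libraries allow, and the adjusted p was 0.0375. The adjustment also took in miR-149 and miR-672, whose p-values are not read as a test. Their small p-values lower the adjusted p of the others. With 5 libraries the smallest p is 0.0625, so no call can survive leaving one out. The arms of miR-335 had a mean log2 ratio of 0.23 ± 0.30 (SD, n = 6) and did not pass (exact permutation p = 0.15625, the same after adjustment).

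**Figure D4:**
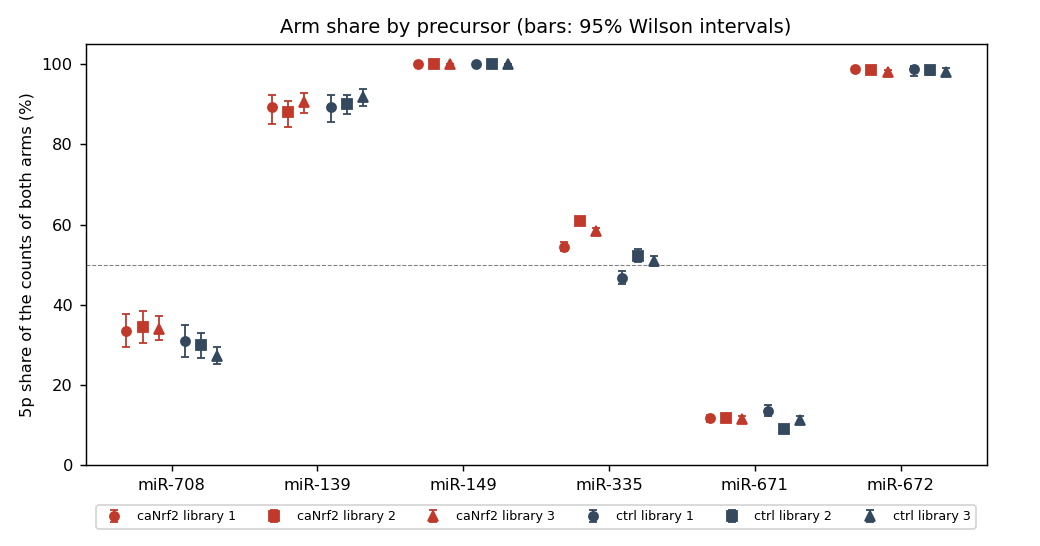
Share of the 5p arm in the counts of both arms (y, percent) for the 6 precursors (x), with 1 point per library, caNrf2 in red to the left of ctrl in dark blue, bars for the 95% Wilson interval, and a dashed line at equal arms. The arms of miR-149, miR-672 and miR-139 are mostly 5p and those of miR-671 and miR-708 mostly 3p, while miR-335 lies near the dashed line, its caNrf2 libraries at 54.5% to 60.8% and its ctrl libraries at 46.8% to 52.2%.

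For miR-335 and miR-708 the arm ratio also separated the genotypes, given here as values without a test because both arms were compared between the genotypes to choose the set. The 5p share of miR-335 was 54.5% (95% Wilson interval 53.3 to 55.6), 60.8% (59.8 to 61.7) and 58.4% (57.5 to 59.2) in caNrf2 libraries 1, 2 and 3. It was 46.8% (45.1 to 48.5), 52.2% (50.6 to 53.8) and 51% (49.8 to 52.2) in ctrl libraries 1, 2 and 3. Every caNrf2 library was above every ctrl library, although the intervals of caNrf2 library 1 and ctrl library 2 overlapped, and ctrl library 1 was the only one in which the 3p arm had more counts. The 5p share of miR-708 was 33.5% (29.6 to 37.7), 34.4% (30.6 to 38.4) and 34.1% (31.2 to 37.1) in the caNrf2 libraries. It was 30.9% (27.1 to 35), 29.9% (26.8 to 33.0) and 27.3% (25.3 to 29.5) in the ctrl libraries. The groups did not overlap here either, but intervals of libraries from different groups did. For miR-139, miR-149, miR-671 and miR-672 the arm ratios of the groups overlapped. How often arm ratios separate in this way over all other precursors was not computed, so nothing is read from the separation. The intervals cover counting error only, since no molecular identifiers are recorded for these libraries.

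The other miRNAs in protein-coding genes give the setting of these members. Of 592 tested miRNAs with a RefSeq position, 298 lay on the same strand inside an annotated protein-coding gene, the members apart. Among these, 42 were called higher and 21 lower (21.1% called), with a median log2 fold change of 0.13 and 192 of 298 above 0. Among the 284 with a position but no such host, 32 were called higher and 47 lower (27.8% called), with a median of -0.13 and 110 of 284 above 0. Over all 697 tested miRNAs 25.7% were called, and the median was 0.03. The difference between these lists was not tested.

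Nrf2 acts through antioxidant response elements, so the core letters TGACNNNGC were searched on both strands of the RefSeq promoter windows, 250 bases before to 50 after each annotated start. Of 13 windows for 5 of the 6 hosts, 1 window of Tenm4 held a match, and 12.4% of all 32851 windows did. Such a match is a description of letters in the window.

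For each precursor's more abundant arm, the non-member with the most similar profile over the 6 libraries was found among the 362 tested miRNAs that averaged 10 CPM or more. Likeness was the root mean square difference of the log2 CPM values, each centred on its own mean. miR-671-3p was nearest to miR-664-5p at 0.07, and miR-139-5p to let-7c-1-3p at 0.08. Distances of 0.12 and 0.13 were found from miR-335-5p to miR-29c-3p and from miR-149-5p to miR-582-3p. The nearest to miR-672-5p was again miR-29c-3p, at 0.26, and the nearest to miR-708-3p was miR-3968, at 0.24. These distances include the difference between the genotypes on which the members were chosen, so they are a description alone.

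**Figure D5:**
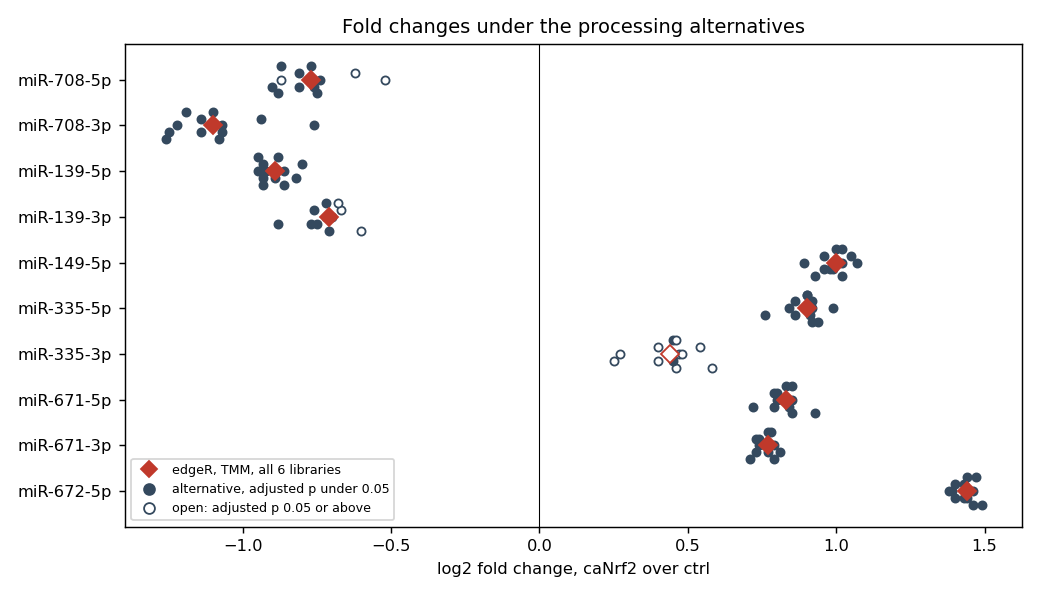
Log2 fold change of caNrf2 over ctrl (x) of the 10 members (y), with a red diamond for the edgeR fit of all 6 libraries and a blue point for each alternative, filled where the adjusted p is under 0.05 and open where it is not. Every point stays on the side of 0 of its diamond, and the open points belong to miR-708-5p, miR-139-3p and miR-335-3p.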

How the data were processed

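The deposited files hold raw counts of reads per mature miRNA, 1 file per library. Per the submitters' processing notes, CASAVA 1.8, cutadapt, Bowtie, featureCounts and edgeR were used with mm10; their order, their settings and what was done with reads that fit several places are not given in the sources. The headers name the same run and lane for all libraries. Sample titles gave the groups and replicate numbers, and each library came from a different mouse.

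Counts were fitted over the whole table in R 4.3.3 with the quasi-likelihood test of edgeR 4.0.16 on TMM-scaled counts. The filter was filterByExpr at its minimum count of 10, the model held the group alone, and the adjusted p threshold was 0.05. SEs came from the F statistic. The fit was tested on simulated data. Alternatives were RLE size factors, library totals, DESeq2 1.42.0, a filter at 10 CPM or none, a replicate block, and leaving out each library; for arm ratios, 1 or nothing added to the counts. The named miRNAs are the 10 members, their other arms, miRNAs with a member's seed and the nearest profiles; markers came from listed sets. The members and lists were chosen with earlier results of these data known. Of the 1907 names, 1623 matched a RefSeq mature sequence; the Mir708 hairpin is not used here. No library copied another (chi-square per degree of freedom at least 116 within groups).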

Additional observations from a re-analysis of the deposited data

How the results depend on the processing

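No member changed direction under any alternative, and the median of all fold changes moved by at most 0.038 on the log2 scale. The count of members called higher was 5, and 6 with no filter or with the replicate block, which added miR-335-3p; the 4 called lower were 2 to 3 when single libraries were left out, with 2 without caNrf2 library 2. Over all tested miRNAs 98 were higher and 81 lower. Higher and lower calls were 91 and 92 with RLE size factors, 92 and 96 with DESeq2, and 104 and 76 with library totals. They were 121 and 90 with no filter, and 60 and 71 with a filter at 10 CPM, where fewer miRNAs were tested. The excess of higher calls was thus not kept under every setting. With 1 library left out, 71 to 97 were higher and 55 to 82 lower. Same-numbered libraries did not deviate together (correlations of 0.18, 0.11 and -0.22 over 697 miRNAs), and not every library correlated best with its own number. With 3 libraries per group, these values cannot tell whether same-numbered samples were prepared together. The replicate block gave 102 higher and 87 lower, with 6 and 4 members, and called miR-335-3p at 0.45 (adjusted p = 0.0116), which DESeq2 did not (0.0747). Mean log2 arm ratios with 1 library left out ranged from -1.15 to -1.05 for miR-708, 3.07 to 3.20 for miR-139, 10.04 to 10.17 for miR-149, -3.01 to -2.88 for miR-671 and 5.88 to 6.02 for miR-672, and none passed, since 5 libraries allow no p under 0.0625. The lowest counts were those of miR-149-3p (3 to 15 a library), miR-672-3p (6 to 54) and miR-139-3p (30 to 59). miR-139-3p was under the 10 CPM filter and has no value there.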
